A study of Mus musculus with 47 samples.

Results

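The core histones H2A, H2B, H3 and H4 and their variants were followed in mouse B cell lymphoma cells that had or lacked the H3K9 methyltransferase Suv39h1, before and after the DNA-damaging drug Adriamycin (ADR). Members were all probe sets whose gene symbol, in its current or older form, belongs to a core histone or core histone variant gene; linker histones and MHC genes were left out. This gave 52 of 45037 probe sets tested, which name 64 of 19324 genes. Of these, 29 probe sets (53 genes) belong to the replication-dependent genes, with 6 for H2A, 10 for H2B, 8 for H3 and 5 for H4. The other 23 probe sets (11 genes) belong to variants, with 16 for H2A variants and 7 for H3.3. Of the 40 members found by the platform's own symbol and the 12 found only by an older one, the latter include H2aj, H2aw and the macroH2A genes. Histones of 1 type are nearly identical in sequence, and 26 probe sets carry several gene symbols. Such a probe set is named here by its type and ID and not by any of its genes.

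Expression was measured on 47 Affymetrix arrays of 22 cultures. All cells were primary lymphoma cells from lymph nodes of Eµ-myc mice, in which an immunoglobulin enhancer drives Myc in B cells, and all carried a retroviral Bcl2 that blocks apoptosis, so that treated cells can enter senescence. Before any treatment, all had been selected for that virus in puromycin over 48 h. There were 14 lymphomas with the labelled genotype Suv39h1 WT and 5 labelled Suv39h1-, each untreated (native) and after 5 days in 0.05 µg/ml ADR. A further 3 cultures, called Suv39h1ER here, were Suv39h1- and carried a Suv39h1 fused to an estrogen receptor domain, which 4-hydroxytamoxifen (4OHT) activates; they were native, under ADR without 4OHT, or under ADR with 4OHT, whose dose the labels do not give. Senescent, by the labels, are ADR-treated WT cells and Suv39h1ER cells given both ADR and 4OHT; the remaining 5 groups are labelled non-senescent. The level of Suv39h1 itself was not analysed here, and the genotypes rest on the labels. All cultures grew on a feeder layer of NIH 3T3 fibroblasts, a mouse cell line, that had been irradiated with 20 Gy.

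Nucleosomes wrap DNA around the core histones. Replication-dependent histone genes lie in clusters, are transcribed in S phase and give mRNAs that mostly end in a stem-loop and not in a poly(A) tail. Variants are made throughout the cell cycle from polyadenylated mRNAs and replace the standard histones at particular places, H2A.Z at promoters and H3.3 in active chromatin. H2A.X is phosphorylated around DNA breaks, its mRNA can end either way, and macroH2A is known from silent chromatin and from the chromatin foci of senescent cells. The labelling protocol primes on poly(A) tails, so a replication-dependent probe set reads the share of the RNA that carries one, and a change can lie in the amount of RNA or in how its end is made.

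Levels are log2 RMA values, in which a difference of 1 is a factor of 2, and levels of different probe sets are not comparable. One array stands apart: ADR-treated Suv39h1- lymphoma 1032 had an array median of 4.07, and all others had 4.32 to 4.43. An earlier analysis of these data found WT lymphomas 2949, 5043, 5766 and 6054 alike, and likewise Suv39h1- lymphomas 7890 and 9250; the labels count them as separate, and their likeness was not tested again here. Suv39h1ER culture 4936 shares its number with a Suv39h1- lymphoma and culture 5043 with a WT lymphoma, whose relation the labels do not explain. Of the B cell markers, Cd79b stood at 10.4 to 11.4 in native WT, 9.78 to 11.5 in native Suv39h1- and 10.1 to 10.8 in native Suv39h1ER cells, and Pax5 at 4.82 to 5.34, 4.71 to 5.40 and 5.17 to 5.47. Untreated genotypes differed in 2 of 9 B cell markers, both higher in WT. Cd79a stood at 9.27 to 10.5 in native WT, 6.73 to 8.74 in native Suv39h1- and 7.67 to 8.37 in native Suv39h1ER cells, and Cd37 at 9.26 to 10.6, 7.81 to 9.07 and 8.07 to 8.87, so native WT overlapped neither of the others. The part of this difference in the genotype comparisons was not tested. In bulk RNA, fewer cells of a type and less RNA per cell cannot be told apart.

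RefSeq (build GRCm38.p6) gave a promoter, 250 bases before to 50 after the start, for 56 of the 64 member genes. Each member gene was counted once, while the share of all promoters counts every listed promoter, so a gene with several enters it repeatedly. The letters CCAAT, bound by the factor NF-Y, occurred on either strand in 38 of 47 promoters of replication-dependent genes (80.9%) and 6 of 9 of variants (66.7%), against 37.4% of all 32851 promoters. The letters TATAAA occurred in 24 of 47 and 1 of 9, against 13.6% of all. The octamer ATTTGCAT, known from H2B promoters, occurred in 8 of 47 and 1 of 9, against 1.74% of all. These were H2bc8, H2bc14 and H2bc18 of H2B, H2ac4, H2ac6, H2ac8, H2ac12 and H2aw of H2A, and the variant H3f3b. The 250 bases before the start are shown for H2az1 and H2az2, whose probe sets fell most surely among variants after H2ax, for H2ac19, which rose, and for H2bc8, 1 of 3 genes named by the probe set with the largest rise. Capitals mark CCAAT on either strand and, for H2bc8, the octamer; these do not overlap.
H2az1, chr3:137864237-137864486, plus strand: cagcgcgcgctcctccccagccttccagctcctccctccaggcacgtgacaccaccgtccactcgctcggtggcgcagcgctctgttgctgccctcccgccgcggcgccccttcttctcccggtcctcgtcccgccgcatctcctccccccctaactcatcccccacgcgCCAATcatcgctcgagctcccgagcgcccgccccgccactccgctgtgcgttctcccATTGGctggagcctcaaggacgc
H2az2, chr11:6444444-6444693, minus strand: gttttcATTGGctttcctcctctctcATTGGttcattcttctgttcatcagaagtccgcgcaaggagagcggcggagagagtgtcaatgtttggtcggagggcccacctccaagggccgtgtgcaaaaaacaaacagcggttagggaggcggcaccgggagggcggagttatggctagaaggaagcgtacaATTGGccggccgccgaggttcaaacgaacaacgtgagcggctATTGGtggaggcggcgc
H2ac19, chr3:96240375-96240624, minus strand: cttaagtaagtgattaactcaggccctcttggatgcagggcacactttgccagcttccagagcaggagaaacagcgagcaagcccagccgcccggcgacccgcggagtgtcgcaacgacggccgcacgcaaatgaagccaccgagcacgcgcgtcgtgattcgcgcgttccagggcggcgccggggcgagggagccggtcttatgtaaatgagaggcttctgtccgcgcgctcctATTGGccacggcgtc
H2bc8, chr13:23571150-23571399, plus strand: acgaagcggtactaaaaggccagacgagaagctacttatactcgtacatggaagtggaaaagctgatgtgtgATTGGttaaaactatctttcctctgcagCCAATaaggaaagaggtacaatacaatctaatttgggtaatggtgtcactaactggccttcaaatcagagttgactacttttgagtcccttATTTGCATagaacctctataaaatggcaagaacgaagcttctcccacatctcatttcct
The windows of H2az1, H2az2, H2ac19 and H2bc8 hold 2, 4, 1 and 2 CCAAT matches, and that of H2bc8 also holds the octamer. The H2az2 window lies before the first start listed for that gene. As the annotated gene reaches to 6444511, the end of the window, with the 2 matches nearest the start, lies inside it. H2bc8 has no probe set of its own and is read only together with H2bc4 and H2bc6.

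In WT lymphomas ADR changed 28 of the 52 probe sets, 10 upwards and 18 downwards (limma with the culture as a block, threshold 0.05 on the adjusted p). Of all probe sets tested, 11.5% were higher and 12% lower. The members' median log2 change was -0.12, beside -0.01 over all probe sets. Variants moved mostly down, with 11 of 23 lower and 1 higher (median -0.24). Replication-dependent genes moved both ways, with 7 of 29 lower and 9 higher (median 0.05). The direction also went with brightness. Of the 10 that rose 6 had a mean level under 5, and of the 18 that fell 2 did; 19 of all 52 members are that dim.

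**Figure D1:**
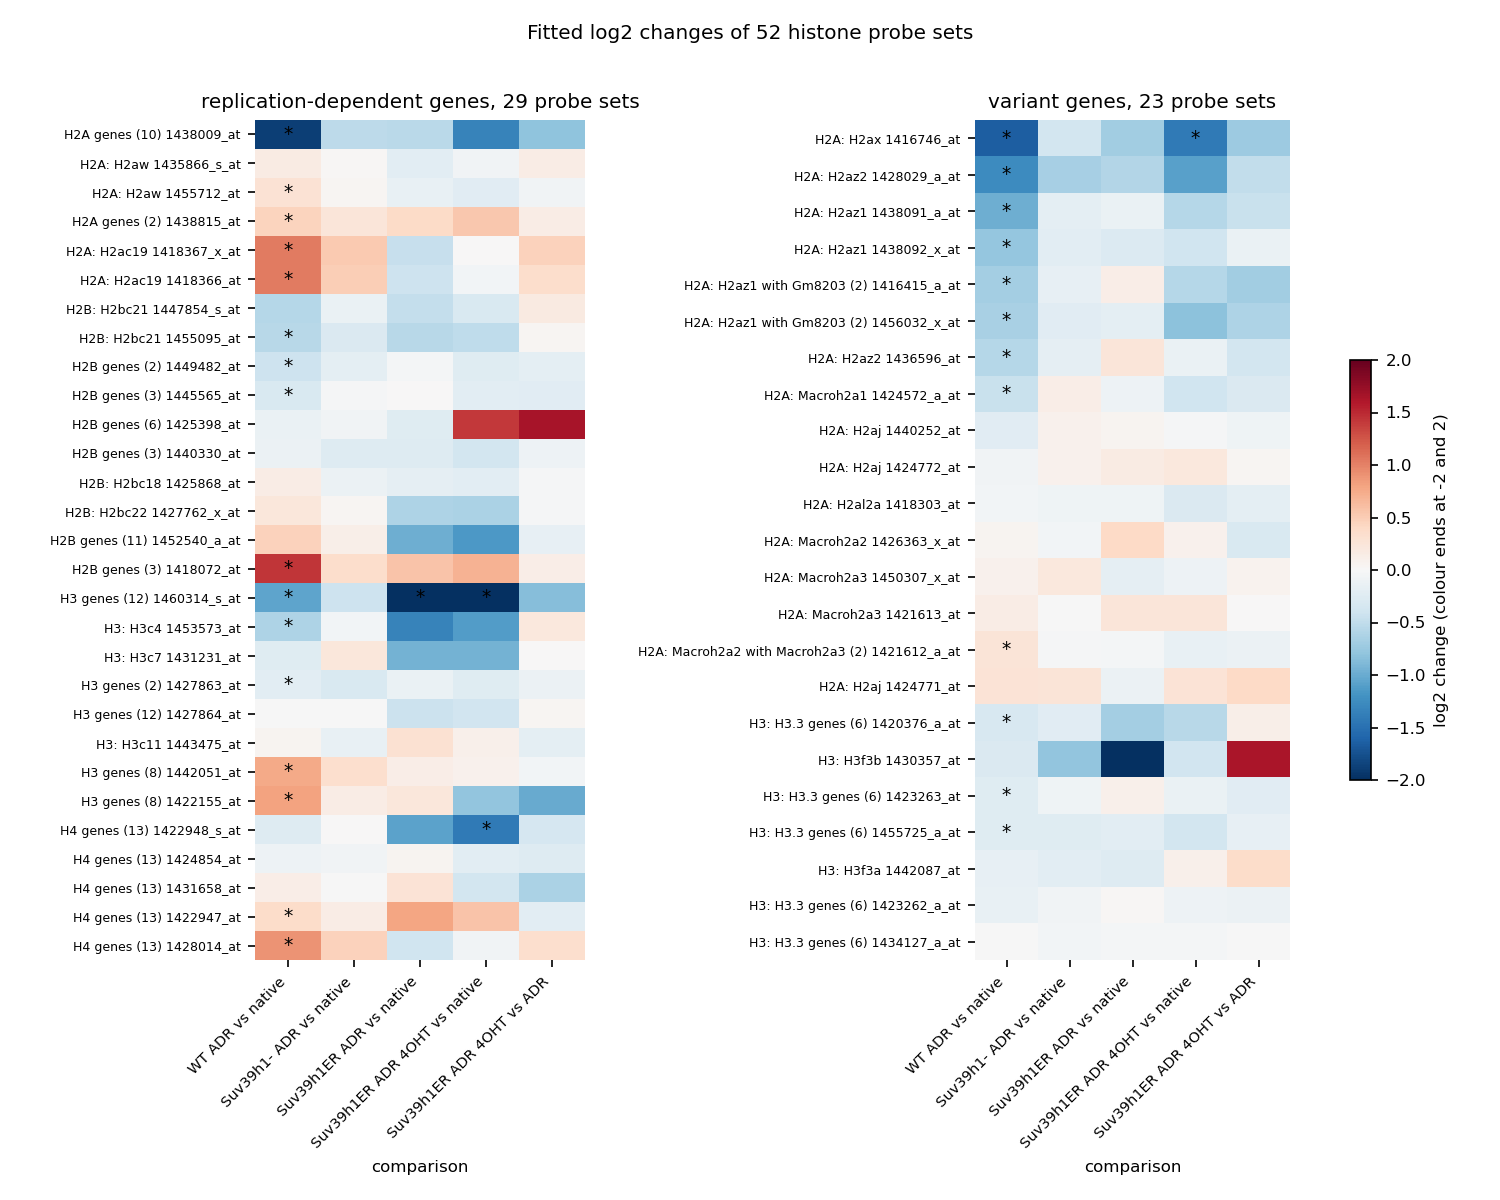
Fitted log2 changes (colour, blue lower and red higher) of the 29 replication-dependent and 23 variant probe sets in 5 comparisons; a number in brackets is how many genes the probe set names and a star marks an adjusted p under 0.05. The WT column holds 28 stars, the Suv39h1- column none, and probe sets of the same genes differ in colour.

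H2ax (1416746_at) encodes H2A.X. Its level in native WT lymphomas ran from 9.11 to 11.1 with a median of 10.29, and under ADR from 7.83 to 9.59 with a median of 8.76. The native and ADR ranges overlapped only between 9.11 and 9.59, and every lymphoma was lower under ADR. The fitted change was -1.65, with an SE of 0.14 and an adjusted p of 3.14e-08, and all 14 lymphomas shared its direction. The smallest falls were -0.53 in lymphoma 1467 and -0.70 in lymphoma 9584. In the mean of 20 S phase genes, lymphoma 1467 changed by -0.86 and lymphoma 9584 by -0.03, the least of the 14. The S phase mean over all 14 changed by -1.30 ± 0.58 (SD, n = 14). In lymphoma 5043 that mean changed by -0.69, and H2ax went from 10.66 to 9.38, a smaller fall than the fitted -1.65. Whether H2ax and S phase changes go together across lymphomas was not tested.

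The H2A.Z genes H2az1 and H2az2 fell in all 6 of their probe sets. The H2az1 probe set 1438091_a_at had native WT levels of 11.5 to 12.4, median 11.9, and ADR levels of 10.2 to 11.6, median 11.0. It fell by 0.98 (SE 0.12, adjusted p = 8.58e-07) and was lower in 13 of 14 lymphomas, with lymphoma 9584 higher by 0.13. The other H2az1 probe sets changed by -0.77, -0.67 and -0.65, the last pair shared with the predicted gene Gm8203, and in each of them lymphoma 9584 was again the only one that was higher. H2az2 (1428029_a_at) went from a native median of 10.31 (9.37 to 11.2) to 9.11 (8.59 to 10.01), so that all 14 lymphomas were lower, by 1.25 in the mean (log2 change -1.25, SE 0.17, adjusted p = 4.81e-06). The second H2az2 probe set, 1436596_at, changed by -0.57 (SE 0.19, adjusted p = 0.0286) and lost its call in 5 of 20 alternatives.

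Other variants moved less. Macroh2a1 was lower in all 14 lymphomas, with a change of -0.45 (SE 0.10, adjusted p = 0.00185), from a native median of 10.6 (10.3 to 10.9) to 10.26 (9.46 to 10.5). The probe set shared by Macroh2a2 and Macroh2a3 rose by 0.25 (SE 0.08, adjusted p = 0.0284) at a mean level of 2.92, and 7 of 20 alternatives ended that call. The probe sets of Macroh2a2 alone (0.06) and Macroh2a3 alone (0.14 and 0.08) did not pass. Of the 5 probe sets shared by H3f3a, H3f3b and H3.3 copies, 3 fell, by 0.31, 0.24 and 0.24, and the other two changed by -0.15 and -0.01. The single-gene probe sets of H3f3a (-0.16, adjusted p = 0.512) and H3f3b (-0.29, adjusted p = 0.458) did not pass. H2aj, which encodes H2A.J, a variant known to build up in senescent fibroblasts, did not pass in any of its 3 probe sets. The brightest, 1424771_at, had native levels of 9.55 to 10.96 (median 10.56) and ADR levels of 10.1 to 11.7 (median 10.63), a change of 0.27 (95% interval -0.00 to 0.54, adjusted p = 0.155); the others changed by -0.06 and -0.23.

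Among replication-dependent genes the bright H2A probe set 1438009_at, annotated to 10 genes of the major histone cluster, had the largest fall of all members. Its native WT levels ran from 11.8 to 13.9 with a median of 13.1 and its ADR levels from 9.20 to 12.1 with a median of 11.2, so the groups overlapped narrowly. Each of the 14 lymphomas was lower, with a mean change of -1.88 (SE 0.19, adjusted p = 1.76e-07). The H3 probe set 1460314_s_at, annotated to 12 genes, went from 6.71 to 9.76 (median 8.26) to 6.63 to 8.07 (median 7.25). All but lymphoma 7050 were lower, and the change was -1.05 (SE 0.20, adjusted p = 0.000281). H3c4 was lower in 12 of 14, at -0.61 (SE 0.16, adjusted p = 0.00634). H2bc21 fell in 1 of its 2 probe sets, by 0.56 (adjusted p = 0.0493), and the other, with -0.57, did not pass. That call was lost in 14 of 20 alternatives, and with alike lymphomas counted once the change was -0.28 (adjusted p = 0.39). The uncalled probe set, 1447854_s_at, was called lower with quantile normalization, dim probe sets left out or 1 probe set per gene. It was also called without lymphoma 1467, 1570 or 7050 (limma, adjusted p from 0.00686 to 0.0422 over these settings).

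The largest rise was in the H2B probe set 1418072_at, annotated to H2bc4, H2bc6 and H2bc8. Native WT lymphomas had 7.20 to 9.92 with a median of 9.16, and ADR lymphomas 9.51 to 10.85 with a median of 10.28. Every lymphoma was higher under ADR, with a mean rise of 1.43 (SE 0.20, adjusted p = 8.05e-06), from 0.19 in lymphoma 2949 to 2.82 in lymphoma 3769. H2ac19, an H2A gene of a smaller cluster, rose in both of its own probe sets, by 1.05 (SE 0.15, adjusted p = 6.95e-06, higher in 13 of 14) and 1.03 (SE 0.14, adjusted p = 3.58e-06, higher in 14 of 14). In 1418366_at its native levels were 6.30 to 8.27 (median 7.19) and its ADR levels 7.79 to 8.96 (median 8.24). The third H2A probe set for it, shared with H2ac18 and dim at a mean of 3.63, rose by 0.44. H2aw rose in 1 of 2 probe sets, by 0.28 (adjusted p = 0.0397, higher in 12 of 14), a call that 11 of 19 alternatives ended.

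**Figure D2:**
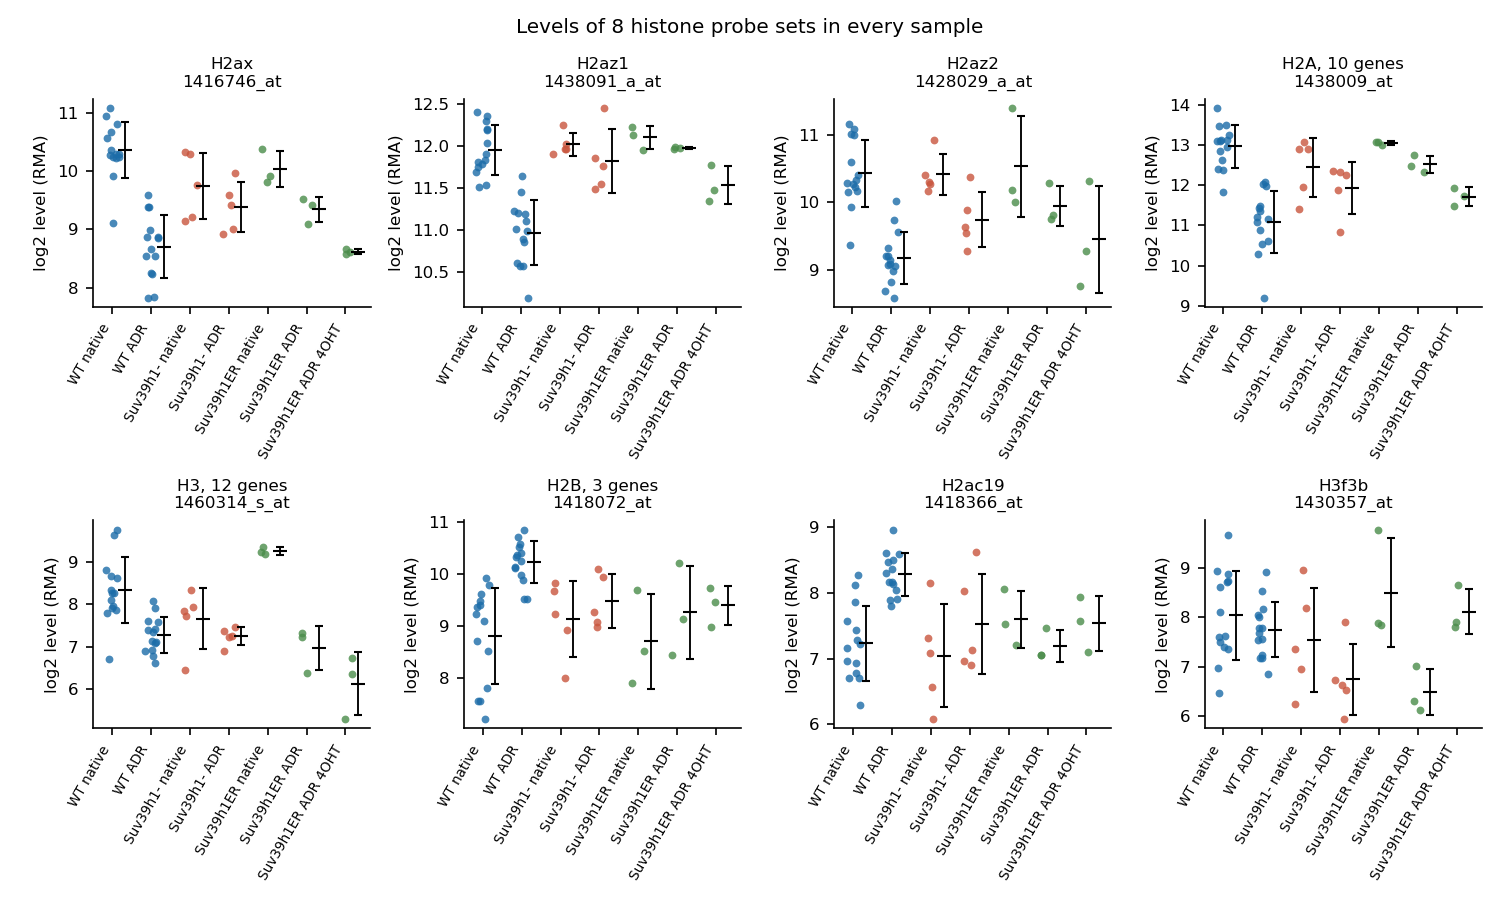
Log2 levels (vertical axis) of 8 probe sets in every sample of the 7 groups; points are samples, and the bar beside them is the mean with 1 SD. H2ax, H2az1, H2az2 and the H2A and H3 probe sets are lower in WT ADR than in WT native, and the H2B probe set and H2ac19 are higher.

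Probe sets with the same annotation disagreed. Of the 3 H2B probe sets naming H2bc4, H2bc6 and H2bc8, 1418072_at (mean level 9.39) rose by 1.43, 1445565_at (4.61) fell by 0.30 and 1440330_at (2.86) changed by -0.11 without passing. Of the 5 H4 probe sets, which all name the same 13 genes, 1428014_at (4.58) rose by 0.90 and 1422947_at (2.97) by 0.36, a call that 8 of 19 alternatives ended, while the brightest, 1422948_s_at (8.58), changed by -0.26 (adjusted p = 0.291). Of the 2 H3 probe sets naming 12 genes, 1460314_s_at (7.67) fell by 1.05 and 1427864_at (4.72) changed by -0.01. A pair of H3 probe sets naming 8 of those genes rose by 0.80 and 0.76, at mean levels of 4.49 and 5.37. No direction can therefore be given for H2B, H3 or H4 mRNA as a whole. The same holds for replication-dependent H2A, where 4 of 6 probe sets rose and 1 fell. Which stretch or end of the RNA each probe set reads was not analysed here.

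Many markers of feeder cells and macrophages also rose under ADR. In WT lymphomas 18 of 19 measured fibroblast markers and 9 of 13 macrophage markers rose, and 3 of 9 B cell markers fell; 3 of 10 neutrophil and 0 of 9 T cell markers rose. The mean level of the fibroblast list ran from 3.91 to 4.93 in native WT and from 4.61 to 8.83 in ADR WT, and was 4.22 to 5.58 and 4.15 to 6.03 in Suv39h1- cells. In Suv39h1ER cells it was 4.00 to 4.07 native, 4.50 to 5.67 under ADR and 4.11 to 4.71 with 4OHT. The macrophage list ran from 5.12 to 7.89 in native WT and from 6.26 to 8.98 in ADR WT, and in Suv39h1- cells from 4.46 to 8.14 and from 4.56 to 8.23. In Suv39h1ER cells it ran from 4.66 to 5.32 native, from 6.06 to 7.56 under ADR and from 6.03 to 6.40 with 4OHT. Col1a1, a fibroblast collagen, had an ADR WT range of 4.19 to 9.71.

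A fit over the 14 WT differences with the fibroblast list's change as a covariate gave the change at a fibroblast change of 0. There 2 members were higher and 7 lower, while 3.93% and 4.07% of all probe sets were. Only lymphoma 1467, at -0.05, lay at or below a fibroblast change of 0. The next was lymphoma 2949 at 0.42 and the mean was 1.82, so these are estimates at the edge of the data. In this fit H2ax was lower by 1.00 (adjusted p = 0.00338), H2az2 by 1.47 and 1.10 and the 10-gene H2A probe set by 1.04. The 12-gene H3 probe set was lower by 1.18, H3c4 by 0.84 and the dim H2B probe set 1445565_at by 0.53. The H2B probe set 1418072_at was higher by 1.28 (SE 0.35, wider than in the main fit) and H2ac19, in 1418367_x_at, by 0.71. Whether wider errors account for calls lost in this fit was not tested. Macroh2a1 was at -0.02 (adjusted p = 0.946), and no H2az1 probe set passed, with 1438091_a_at at -0.50 (adjusted p = 0.1). The slope on the fibroblast change passed in 5 members, all negative: the 10-gene H2A probe set, H2ax, 1 probe set each of H2az1 and H2aj, and Macroh2a1. The same fit with macrophage markers was not run, and the part of either marker list in the Suv39h1ER results was not tested.

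**Figure D3:**
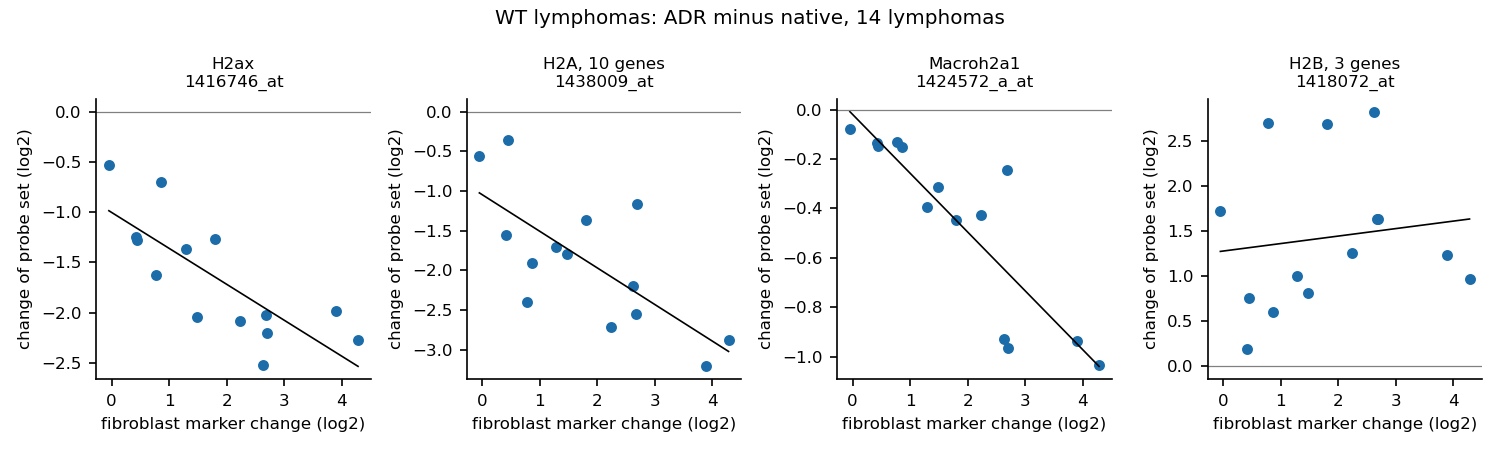
Log2 change of 4 probe sets (vertical axis) against the log2 change of the mean of 19 fibroblast markers (horizontal axis) in the 14 WT lymphomas, with the fitted line. H2ax, the H2A probe set and Macroh2a1 fell further where the markers rose further, and the H2B probe set rose in every lymphoma.

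Genes that make and handle histones were mostly lower in the same WT lymphomas. All 20 measured S phase genes fell, among them Gins1 (-1.77), Pola1 (-1.99) and Rfc4 (-1.66) of the replication machinery. Of 11 genes for histone gene transcription 8 fell, with Nfyb, a subunit of NF-Y, at -0.82 and the S phase kinase Cdk2 at -1.02. Of 18 genes for histone mRNA 3′ end formation and decay 9 fell, with Coil, the Cajal body scaffold, at -0.50, and Lsm10, of the histone pre-mRNA processing particle, rose by 0.29. Of 12 genes that deposit H3-H4 behind replication forks 11 fell, with Mms22l at -1.27, the chaperone Asf1b at -1.47 and the acetyltransferase Hat1 at -0.93, and the importin Ipo4 rose by 0.53. Only 2 of 6 H3.3 deposition genes fell. Of 14 genes listed for H2A-H2B and H2A variant exchange 7 fell. The H2A.Z loader subunit Znhit1 (0.25) rose, as did the elongation factor Supt6 (0.38), which was placed in that list.

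In Suv39h1- lymphomas none of the 52 members was called for ADR, and 5 had an unadjusted p under 0.05 (limma). Over all probe sets 0.00666% were called, 3 in number, and 5126 had an unadjusted p under 0.05. H2ax stood at 10.33, 9.77, 10.29, 9.15 and 9.21 in native lymphomas 5783, 7890, 9250, 1032 and 4936 and at 9.01, 9.41, 9.97, 8.93 and 9.58 under ADR. It was lower in 4 of 5 and higher in 4936, with a mean change of -0.37 (95% interval -0.86 to 0.13). The 10-gene H2A probe set went from 12.92, 13.08, 12.91, 11.95 and 11.41 to 11.89, 12.34, 12.35, 10.83 and 12.26, with lymphoma 4936 again the only rise. Lymphoma 4936 was also the only one whose S phase mean rose, by 0.85. H2az2 (1428029_a_at) was lower in 5 of 5, at -0.67 (95% interval -1.25 to -0.09, adjusted p = 0.355), and H2ac19 (1418366_at) was higher in 4 of 5, at 0.49 (95% interval -0.01 to 0.99). No list gene for S phase, histone transcription, mRNA processing or chaperones passed in this genotype.

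The WT response minus the Suv39h1- response also passed in none of the 52 members, with 9 at an unadjusted p under 0.05; over all probe sets 0.0688% passed. The largest differences were -1.37 (SE 0.37, adjusted p = 0.0992) for the 10-gene H2A probe set and -1.28 (SE 0.28, adjusted p = 0.0638) for H2ax. The H2ax difference passed in 3 alternatives, with dim probe sets left out (adjusted p = 0.043), with 1 probe set per gene (0.0461) and without Suv39h1- lymphoma 5783 (0.0366). For H2az1 (1438091_a_at) it was -0.78 (95% interval -1.24 to -0.32, adjusted p = 0.106), for Macroh2a1 -0.58 (-0.996 to -0.164, adjusted p = 0.165) and for the H2B probe set 1418072_at 1.08 (0.27 to 1.88, adjusted p = 0.178). The fibroblast list rose by 1.82 ± 1.31 (SD, n = 14) in WT and by 0.15 ± 0.21 (SD, n = 5) in Suv39h1- lymphomas, and its part in these differences was not tested.

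**Figure D4:**
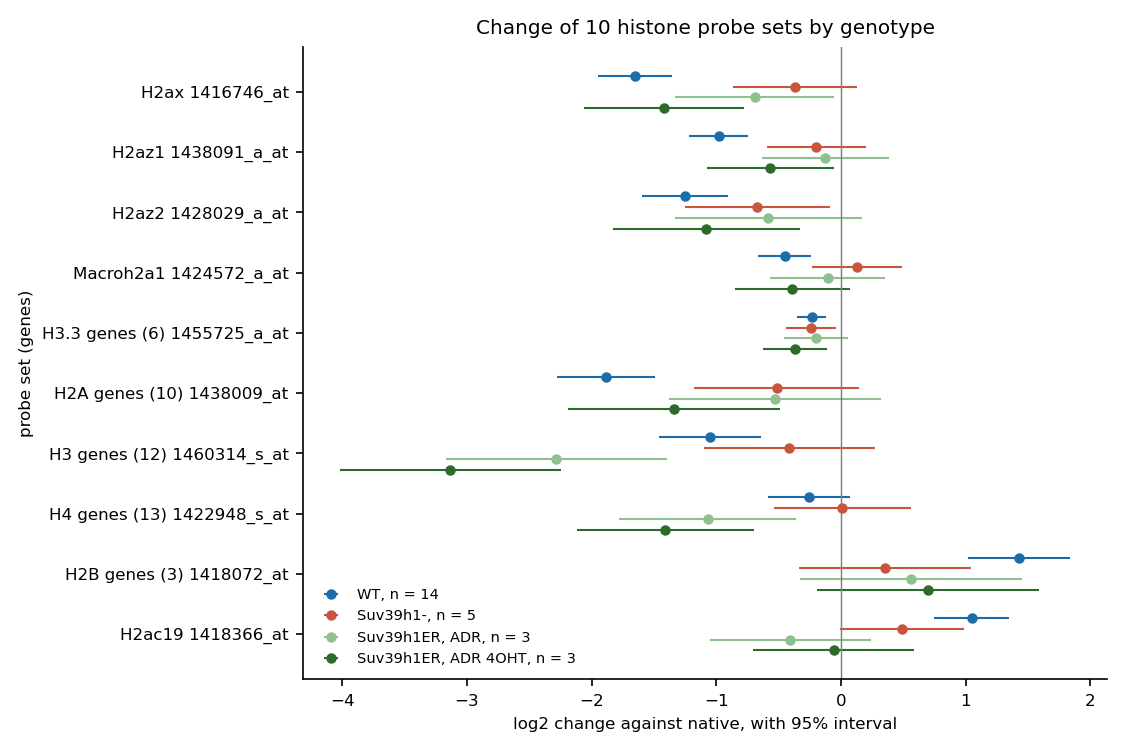
Fitted log2 change against native cells (horizontal axis) with its 95% interval for 10 probe sets, by genotype and treatment; a number in brackets is how many genes the probe set names. WT intervals for H2ax, H2az1, H2az2 and the H2A probe set lie below 0, most Suv39h1- intervals cross 0, and the H3 probe set is lowest in Suv39h1ER cells.

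In the 3 Suv39h1ER cultures the 12-gene H3 probe set 1460314_s_at stood out. Values of these cultures are given in the order 4936, 5043 and the third culture. The probe set had native levels of 9.36, 9.23 and 9.19, ADR levels of 7.23, 6.38 and 7.32, and levels of 6.35, 6.74 and 5.30 under ADR with 4OHT. Neither treated group overlapped the native one. Under ADR alone it fell by 2.28 (SE 0.43, adjusted p = 0.0157), the only member called, while 0.260% of all probe sets were lower. That call was lost without culture 4936 (adjusted p = 0.356). Under ADR with 4OHT 3 members were lower than native, while 0.937% of all probe sets were. The H3 probe set fell by 3.13 (SE 0.43, adjusted p = 0.000534). H2ax fell by 1.42 (SE 0.31, adjusted p = 0.0181), with native levels of 10.39, 9.91 and 9.81, ADR levels of 9.10, 9.52 and 9.41 and 4OHT levels of 8.58, 8.67 and 8.61. The H4 probe set 1422948_s_at, annotated to 13 genes, fell by 1.41 (SE 0.34, adjusted p = 0.0333). Its native levels were 9.65, 9.28 and 9.16, its ADR levels 8.54, 7.81 and 8.52 and its 4OHT levels 7.86, 8.36 and 7.64. Under ADR alone its change was -1.07, which was not called, and culture 5043 was lower under ADR alone than with 4OHT. The H2ax and H4 calls were lost without any 1 of the 3 cultures and without the block. Both comparisons share the native arrays.

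Adding 4OHT to ADR, the step meant to activate the Suv39h1 fusion, gave a call in none of the 52 members. An unadjusted p under 0.05 (limma) was found in 8, and over all probe sets 0.755% were called. No culture had 4OHT without ADR or without the fusion, so an effect of 4OHT itself cannot be told apart. In all 3 cultures H2ax was lower with 4OHT, at -0.73 (95% interval -1.37 to -0.09, adjusted p = 0.295). The H2az1 probe set shared with Gm8203, 1416415_a_at, went from 13.2, 12.85 and 13.03 to 12.26, 12.06 and 12.63, a change of -0.70 (SE 0.19, adjusted p = 0.082). The H3f3b probe set 1430357_at stood at 9.77, 7.84 and 7.90 in native cells, at 6.14, 6.31 and 7.02 under ADR and at 8.65, 7.90 and 7.81 with 4OHT, so ADR cultures lay below both other groups without overlap. The changes were -2.02 (adjusted p = 0.0786) for ADR and 1.63 (adjusted p = 0.125) for adding 4OHT. The 5 H3.3 probe sets shared with H3f3a had changes of -0.67 to 0.10 for ADR and -0.23 to 0.12 for adding 4OHT, none of them called. The lowest, 1420376_a_at under ADR (adjusted p = 0.0944), was called without culture 5043, at -0.85 (adjusted p = 0.0472). The largest difference was in a dim H2B probe set naming 6 genes, 1425398_at, at 1.65 (adjusted p = 0.131). Of the chaperones, Asf1a, which hands H3-H4 on to other chaperones, fell on adding 4OHT, by 1.30 (adjusted p = 0.0201).

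Untreated WT and Suv39h1- lymphomas differed in 1 member, H3c7, an H3 gene of the major cluster. Native WT lymphomas had 4.22 to 6.59 with a median of 5.78, and native Suv39h1- lymphomas 4.35, 4.50, 4.71, 5.07 and 3.98. The ranges overlapped and the difference was 1.15 (SE 0.28, adjusted p = 0.0351); over all probe sets 1.77% were higher in WT. The call was lost without any 1 of 4 Suv39h1- lymphomas (4936, 5783, 7890 or 9250) and with the alike lymphomas counted once.

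Between ADR-treated WT and ADR-treated Suv39h1- lymphomas 6 members were higher and 4 lower in WT, while 5.30% and 4.45% of all probe sets were. The 4 lower ones are the 4 H2az1 probe sets. In 1438091_a_at ADR-treated WT lymphomas had 10.2 to 11.6, and Suv39h1- lymphomas had 11.54, 11.85, 11.76, 11.48 and 12.44, which overlaps only at the lower end. The difference was -0.85 (SE 0.19, adjusted p = 0.0103) and kept its call in all 10 alternatives; the other H2az1 probe sets differed by -0.67, -0.53 and -0.44 and lost theirs in 4 to 5. Higher in ADR-treated WT cells were H3f3b (1430357_at, 1.00, adjusted p = 0.0373), H2ac19 (1418366_at, 0.75, adjusted p = 0.0445), the H2B probe set 1418072_at (0.75, adjusted p = 0.0331), H3c7 (0.68, adjusted p = 0.0402), the dim Macroh2a2 and Macroh2a3 probe set (0.54, adjusted p = 0.0238) and the H3 probe set 1427863_at naming H3c2 and H3c10 (0.36, adjusted p = 0.0354). All 6 lost their call without Suv39h1- lymphoma 4936 or without 7890. In the same comparison 12 of 20 S phase genes and 7 of 12 H3-H4 deposition genes were lower in WT, and the H3.3 chaperone Hira was lower in WT, with a difference of -1.24 (adjusted p = 0.000664) there and -0.80 (adjusted p = 0.0212) in native cells. Of the 32 chaperone and exchange genes measured, 3 were higher and 11 lower in ADR-treated WT cells, the higher ones being Vps72 (0.54) and Znhit1 (0.78) of the H2A.Z loading complex and Supt6 (0.36). In native cells 3 were higher, the H3.3 chaperone Daxx (0.37), Vps72 (0.66) and Ruvbl2 (0.83), and Hira alone was lower. The fibroblast list, at 4.61 to 8.83 in ADR WT and 4.15 to 6.03 in ADR Suv39h1- cells, differed as well, and its part was not tested.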

How the data were processed

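RNA of 22 cultures of primary mouse lymphoma cells was hybridised to 47 Affymetrix arrays. The authors deposited log2 expression values per probe set, and the submitters' processing notes name RMA, oligo and R 3.5.0. No source used here says whether all arrays were normalized together. Gene symbols come from the platform annotation, and older symbols were matched through RefSeq. The members and the gene lists were chosen with earlier results of these data known. The 64 control probe sets were left out. A probe set with several symbols was a member if at least 1 fits and the rest are predicted genes or other core histones. This is wider than first written, which asked every symbol to fit: 7 members have such a companion, and 1 probe set shared with another gene was left out. The narrower reading was added as an alternative after seeing the data.

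All 45037 probe sets were fitted with limma 3.58.1 in R 4.3.3 (lmFit, eBayes), read with the R package data.table, version 1.17.8. Within cultures, all 47 arrays entered 1 fit with the culture as a fixed block. The 2 unpaired comparisons used 19 arrays each. Tests were two-sided, with Benjamini-Hochberg adjustment over all probe sets and a threshold of 0.05, and nothing was filtered on brightness. The pairing comes from the series' design text, which describes matched pairs. The 2 arrays of a culture deviated together (r over 0.1) in 10 of 14 WT, 5 of 5 Suv39h1- and 2 of 9 Suv39h1ER pairs. Replicates are lymphomas as the labels number them, so p-values measure only the spread between these, and would be too low were any lymphomas not separate. The fit was run on simulated data with independent normal noise, with a set requirement only for the WT comparison. That run gives no assurance for the smaller groups. The text names every variant except 1 H2al2a probe set, the largest rises and falls (up to 8 each) among called replication-dependent members that moved 1 way in at least 12 of 14 WT lymphomas, the 10 smallest p among members called elsewhere, and up to 3 genes per list and direction in WT. Other members and list genes named were chosen after their values were seen. A list gene is represented by its brightest probe set. Some markers and list genes were not analysed here, and the counts give those measured. Alternatives were no block, quantile normalization, dim probe sets (mean under 5) left out, 1 probe set per gene, alike lymphomas counted once, a trended robust prior, leaving out each lymphoma and the fibroblast covariate. Figures were drawn with matplotlib 3.10.9.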

Additional observations from a re-analysis of the deposited data

Results flagged for a closer look

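In groups of 5 lymphomas, 3 values of named members lay far from the others, among 72 tested; chance alone flags about 1 in 20. Under ADR, Suv39h1- lymphoma 1032, whose array has the low median, stood at 3.84 in the H2aj probe set 1440252_at, below the other 4 at 5.17 to 5.55. Lymphoma 4936 under ADR stood at 13.2 in the H2az1 probe set 1416415_a_at, above 12.53 to 12.71. Native lymphoma 5783 stood at 6.45 in H2aw (1455712_at), above 4.03 to 4.71. For H2ac19 (1418367_x_at), every WT lymphoma was higher under ADR (mean change 1.03) and all 3 Suv39h1ER cultures were lower (mean change -0.46, adjusted p = 0.575, not called), with 0.53 in Suv39h1- lymphomas. The difference between WT and Suv39h1ER was not tested.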

How the results depend on the processing

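In no alternative did a called change of a member reverse. Beside 10 rises and 18 falls in WT, leaving out dim probe sets gave 4 rises and 17 falls among 33 members. Of all 18709 probe sets in that setting, 3923 rose and 4808 fell, so members rose less often and fell more often than all. Taking 1 probe set per gene gave 5 rises and 11 falls among 31 members, and 3016 rises and 2674 falls among all 18828. The members' share of rises was then about that of all probe sets. The fibroblast covariate gave 2 rises and 7 falls, and the narrower membership 11 falls. Leaving out each WT lymphoma gave 7 to 11 rises and 15 to 20 falls. For the difference in response, where no member was called lower, 1 was with dim probe sets left out and 1 with 1 probe set per gene, and leaving out each Suv39h1- lymphoma gave 0 to 1. In Suv39h1ER cells under ADR, leaving out each culture gave 0 to 1 rise against 0 and 0 to 2 falls against 1. Under ADR with 4OHT, the 3 falls became 1 without the replicate block and 1 to 2 when a culture was left out. The block changed no other count of members by over 1.5 times. In native cells, the 1 higher member was 0 with 1 probe set per gene or alike lymphomas counted once, and 0 to 1 without each Suv39h1- lymphoma. Between ADR-treated genotypes, alike lymphomas counted once gave 1 higher and 1 lower. The lower count of 4 was 2 with quantile normalization, 2 with 1 probe set per gene and 2 with the narrower membership. Leaving out each Suv39h1- lymphoma gave 0 to 8 higher and 1 to 6 lower. The causes were not tested. Leaving out dim probe sets and taking 1 per gene test fewer probe sets (33 and 31 members). The narrower membership counts only 33 members, within the main fit. Detection calls were not used, so the limit set by signal over background is known only through the mean level.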
